A study of Mus musculus with 14 samples.

Results

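The genes that encode the proteins of the cytosolic ribosome were taken from the RefSeq gene table of mouse build GRCm38 (mm10). They were protein-coding genes whose symbol is Rpl or Rps with a number, where a letter, x, l or l1 may follow, with Rplp0, Rplp1, Rplp2 and Rpsa added and the Rps6k kinases and pseudogenes left out. The rule gave 83 of 21887 protein-coding genes. Of these, 30 encode small subunit proteins, 46 encode large subunit proteins, and 7 are paralogs that are tissue-restricted or diverged from the standard subunit (Rpl3l, Rpl7l1, Rpl10l, Rpl22l1, Rpl32l, Rpl39l and Rps27l). The rule uses names only.

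The study profiled the transcription factors GATA2 and RUNX1 and elongating RNA polymerase II, marked by phosphate on serine 2 (S2P), by ChIP-seq in G1ER cells. G1ER is a mouse erythroblast line without endogenous GATA1 that carries a GATA1 fusion activated by estradiol, so the fusion is shared by all groups. The groups were wild-type cells (WT) and Chd7-/- cells (KO), which lack a chromatin remodelling ATPase. Each factor had 1 library per genotype and S2P had 2 replicates per genotype, with 6 inputs beside the 8 immunoprecipitated samples. The labels name estradiol for a differentiation assay and do not say whether the ChIP cells were treated, nor whether the KO cells are 1 clone. The files hold 1 peak list per target and genotype, so there was no replicate spread. Every WT and KO value below therefore compares those 2 lists, and no difference between genotypes could be tested.

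Ribosomal protein genes are short, are scattered over the genome and are among the most actively transcribed genes of a growing cell. Their products are needed in equal amounts, and their mRNAs share a pyrimidine tract at the start (the 5′ terminal oligopyrimidine motif) through which mTOR signalling controls translation. Many carry small nucleolar RNAs in their introns, which guide the modification of ribosomal RNA. Loss of 1 copy of several of these genes causes Diamond-Blackfan anemia, a failure of red cell production, so erythroid cells are a tissue in which their supply matters. RUNX1 and GATA2 are regulators of blood stem and progenitor cells. GATA2 is also replaced by GATA1 at many sites during red cell maturation.

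The promoters of 8 members are printed to show what lay under RUNX1 summits, from the RefSeq promoter table of GRCm38.p6. Each stretch runs from 150 bases before an annotated RNA start to 20 bases from the start base on, 5′ to 3′ on the strand of the gene. Capitals mark matches, on either strand, to TGTGGT (the RUNX core), AGATAA (the motif of GATA factors, for which TGATAA was counted as well), CACGTG (E-box), CCGGAAG (ETS core) and ATGGCGG (YY1 core). Rpl19 (chr11:98026774-98026943, plus strand) and Rpl22 (chr4:152325576-152325745, plus strand) had the strongest WT RUNX1 peaks of all members. Rpl18 (chr7:45717921-45718090, plus strand), Rpl34 (chr3:130730318-130730487, minus strand), Rps7 (chr12:28635934-28636103, minus strand) and Rpl15 (chr14:18270967-18271136, minus strand) had a motif nearest to the summit. Rps2 (chr17:24719913-24720082, plus strand) and Rps25 (chr9:44407564-44407733, plus strand) were added after their values were seen because they hold a RUNX core.
Rpl19: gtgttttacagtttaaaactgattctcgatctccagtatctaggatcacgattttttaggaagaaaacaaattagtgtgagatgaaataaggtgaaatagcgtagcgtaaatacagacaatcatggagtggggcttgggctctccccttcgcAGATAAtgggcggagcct
Rpl22: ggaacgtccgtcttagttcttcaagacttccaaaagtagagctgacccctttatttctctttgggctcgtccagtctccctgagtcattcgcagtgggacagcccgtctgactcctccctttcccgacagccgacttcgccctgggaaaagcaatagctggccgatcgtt
Rpl18: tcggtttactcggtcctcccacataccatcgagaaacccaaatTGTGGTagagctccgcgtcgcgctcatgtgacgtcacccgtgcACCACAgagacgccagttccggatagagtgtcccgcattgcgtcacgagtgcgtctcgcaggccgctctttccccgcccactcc
Rpl34: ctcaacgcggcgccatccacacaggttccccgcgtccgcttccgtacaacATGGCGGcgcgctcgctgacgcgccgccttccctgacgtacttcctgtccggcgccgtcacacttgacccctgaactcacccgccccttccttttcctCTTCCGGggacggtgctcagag
Rps7: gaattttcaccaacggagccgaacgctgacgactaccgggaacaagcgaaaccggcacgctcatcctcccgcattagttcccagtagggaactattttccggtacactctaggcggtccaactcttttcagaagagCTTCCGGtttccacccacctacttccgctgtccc
Rpl15: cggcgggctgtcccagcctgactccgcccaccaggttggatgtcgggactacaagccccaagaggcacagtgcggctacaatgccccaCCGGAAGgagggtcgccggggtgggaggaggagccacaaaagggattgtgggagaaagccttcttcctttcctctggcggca
Rps2: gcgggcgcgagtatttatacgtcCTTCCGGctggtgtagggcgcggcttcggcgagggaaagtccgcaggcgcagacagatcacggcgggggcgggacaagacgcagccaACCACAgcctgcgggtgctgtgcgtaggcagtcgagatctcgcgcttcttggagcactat
Rps25: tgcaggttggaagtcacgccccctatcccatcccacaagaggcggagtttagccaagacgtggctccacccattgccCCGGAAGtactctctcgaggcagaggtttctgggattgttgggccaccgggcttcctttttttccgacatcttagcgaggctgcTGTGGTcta

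Counting from 0 at the start base, the WT RUNX1 summit lay at -100 in Rpl19 and at -3 in Rpl22. Neither printed stretch holds a RUNX core. Rpl19 has a GATA match that begins at 2, just after the start. Rpl18 has 2 RUNX cores, at -107 and -64, and its WT RUNX1 summit lay at -58, which is 6 bases from the second. The start of the neighbouring gene Sphk2 was closer still to that summit, at 11 bases. Rps2 has a RUNX core at -40 with the summit at -57, and the start of Snhg9 was closer to that summit, at 41 bases. Rps25 has its core at 11 with the nearest WT summit at -95. Rps7 has an ETS core at -14 and a summit at -22. Rpl15 has an ETS core at -62, a summit at -75, and a run of 17 pyrimidines that begins at -4. Rpl34 has a YY1 core at -100, a summit at -107, an ETS core at -2 and a run of 20 pyrimidines from -17 across the start. A match is a string of letters, and binding to it was not measured.

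Over all 75 promoter windows of the 63 members in that table (250 bases before the start and 50 from it on), the RUNX core was rarer than elsewhere and the ETS and YY1 cores were more common. The RUNX core stood in 5 windows (6.67%), those of Rpl6, Rpl18, Rps2, Rps12 and Rps25, against 16.8% of all 32851 windows and 12.6% of the 3106 windows of genes covered by S2P in both genotypes. The GATA motif stood in 9 (12%) against 18.6% and 8.95%. The E-box, bound by MYC and its partners, stood in 8 (10.7%) against 7.15% and 12.2%. The ETS core stood in 26 (34.7%) against 8.86% and 23.5%, and the YY1 core in 14 (18.7%) against 4.05% and 11.2%. A run of at least 5 pyrimidines over the start base was found in 21 windows (28%), against 10.1% and 9.59%. The median GC content was 57.7% in member windows, 52.7% in all windows and 61.7% in windows of S2P-covered genes, so base composition differed between these sets too. None of the strings searched contains another. No form of the RUNX site other than TGTGGT was counted. Windows of members with several starts can overlap, so 1 match can count more than once, as with the YY1 core of Rpl35a.

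**Figure D1:**
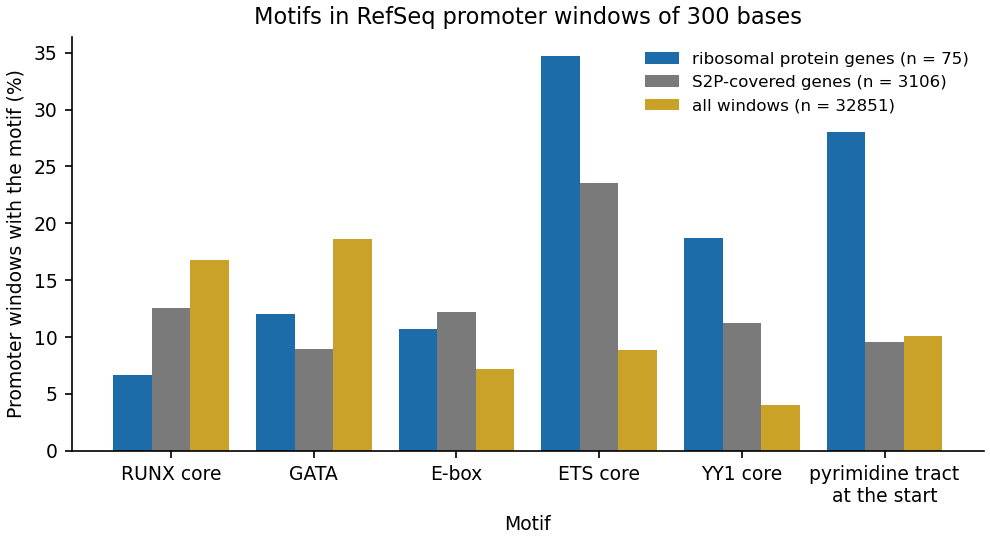
Share of RefSeq promoter windows (y axis, percent) that hold each motif (x axis) among ribosomal protein genes, genes covered by S2P in both genotypes and all windows. The ETS core reached 34.7% of ribosomal windows against 8.86% of all windows, while the RUNX core reached 6.67% against 16.8%.

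The number of peaks in WT and KO was 68199 and 80611 in the GATA2 lists, 28952 and 35281 in the RUNX1 lists and 163620 and 165206 in the S2P lists. The median summit of the 4 factor lists rested on 23 to 38 fragments, a number recovered from the deposited fold enrichment and p-value of each peak, and summits could not exceed 282 to 286 fragments. The labelled cell type was checked by S2P: 9 of 10 erythroblast markers carried S2P in both genotypes, with a median coverage of 51.0% in WT and 56.5% in KO, and Slc4a1 was at 0. All 4 B cell, 4 T cell and 4 fibroblast markers were at 0, and of 5 macrophage or granulocyte markers only Csf1r had any, 11.6% and 10.9%. The loss of Chd7 itself cannot be read from these lists. Shared summits on chromosome 5 stood higher in KO than those elsewhere for both factors (median log2 of KO over WT 0.56 against 0.17 for RUNX1, and 0.46 against 0.09 for GATA2). The 5 members there are Rpl5, Rpl6, Rpl9, Rpl21 and Rplp0, and values are given with and without them where they bear on a result.

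Elongating polymerase covered these genes from end to end. Among the 70 members of at least 2 kb, the share of the gene under S2P peaks had a median of 100% in WT and 100% in KO. In WT 66 members (94.3%) were covered over at least 50% of their length, against a background of 16.7% of the 19304 protein-coding genes of that length. In KO 66 were covered, against 17.1%. Complete coverage was seen in 47 members in WT (background 0.995%) and 45 in KO (0.979%). These made up 24.5% of the 192 fully covered genes in WT and 23.8% of the 189 in KO. Members are short, with a median length of 3175 bp against 17169 bp over all genes, and of genes no longer than the longest member 2.93% were fully covered in WT and 2.91% in KO. The authors' fold enrichment at the highest S2P peak in each member of at least 2 kb had a median of 12.4 in WT and 13.04 in KO. Over all such genes with an S2P peak it was 6.74 and 7.76, and over S2P-covered genes 10.2 and 11.4. It was highest at Rpl39 (25.9 in WT and 25.4 in KO), Rps4x (21.9 and 26.2) and Rpl10 (19.9 and 23.5), all on the X chromosome. The fourth member there, Rpl36a, had 14.998 and 21.9, and these genes were named after their values were seen. Of the 13 members under 2 kb, 9 were fully covered in WT and 8 in KO, and only the paralogs Rpl10l and Rpl32l were at 0.

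The 2 subunits did not stand apart in coverage: all 23 small subunit genes and 41 of 43 large subunit genes of at least 2 kb reached 50% in both genotypes. The lowest standard subunit genes were Rpl36, at 32.0% in WT and 39.0% in KO, Rpl19, at 42.2% and 46.8%, Rpl18, at 56.5% and 54.6%, and Rpl29, at 65.5% and 67.2%. Rpl19 and Rpl18 have gene models that begin 4921 and 2604 bases before the RNA starts printed above. From those starts to the gene end both were covered over 100% in both genotypes, so the uncovered stretch lay upstream. Rpl22 went from 85.6% to 98.8% in WT by the same count, with 1290 bases before its printed start.

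The 7 paralogs split in 2. Rpl22l1, a close relative of Rpl22, was covered over 100% in both genotypes. Rpl7l1, which acts in large subunit assembly, was covered over 87.0% in WT and 88.2% in KO, and Rps27l, a p53 target, over 50.5% and 51.7%. The muscle form Rpl3l, the testis forms Rpl10l and Rpl39l, and Rpl32l were at 0 in both lists. Paralogs with near-identical sequence can share or lose reads in mapping, and how the authors treated such reads is not given in the sources used here.

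**Figure D2:**
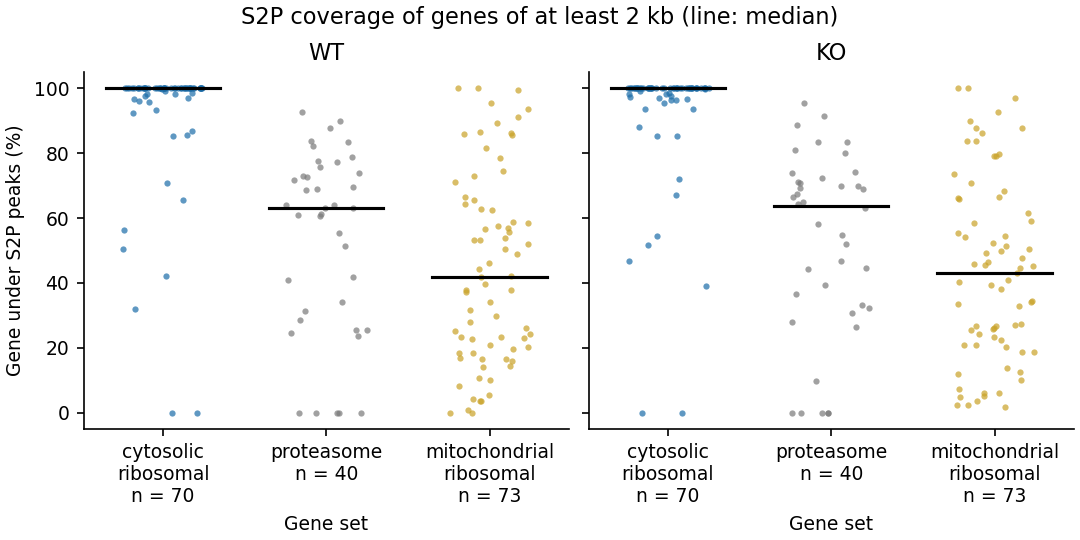
Percentage of each gene under S2P peaks (y axis) for genes of at least 2 kb in 3 gene sets (x axis), in WT and KO; each point is 1 gene and the line is the median. Medians were 100% for cytosolic ribosomal protein genes, 63.2% and 63.7% for proteasome genes and 42.0% and 43.0% for mitochondrial ribosomal protein genes.

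Genes of 2 other abundant complexes were covered less. The 73 mitochondrial ribosomal protein genes of at least 2 kb had a median coverage of 42.0% in WT and 43.0% in KO, and 32 and 28 of them reached 50%. The 40 proteasome subunit genes had medians of 63.2% and 63.7%, and 26 and 24 of them reached 50%. Both sets have longer genes, with medians of 7690.5 and 11930 bp. The profile along the gene was drawn for these sets too, and its values are given here for members. Along the 52 members of at least 2 kb with a known strand, the share of genes under a WT S2P peak lay between 11.5% and 26.9% over the last 1 kb before the start, and was 78.8% at the start and 96.2% at the 3′ end. Past the end it was still 96.2% at 1 kb, 90.4% at 2 kb and 61.5% at 3 kb, and it was 25% at 5 kb.

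**Figure D3:**
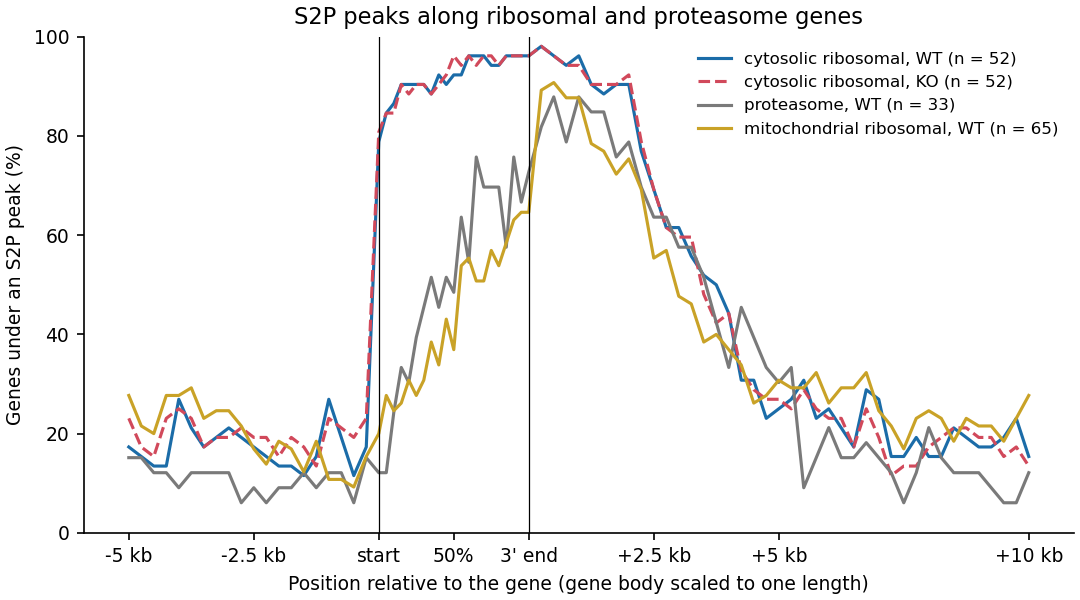
Percentage of genes under an S2P peak (y axis) by position (x axis: kb before the start, gene body scaled to 1 length, kb after the 3′ end). In cytosolic ribosomal protein genes the WT and KO lines lie close together, and WT stands at 78.8% of genes at the start and 96.2% at the 3′ end. The proteasome and mitochondrial ribosomal lines climb through the gene as well, in genes that are longer.

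Coverage hardly differed between genotypes. It was higher in KO at 11 members, lower at 12 and equal at 47. Over all genes with S2P in either list the background was 61% higher and 37.2% lower. That background leaves out genes at 0 in both lists, whereas the 47 equal members include Rpl3l and Rpl39l, which were at 0. Among the 3045 genes covered by S2P in both genotypes, 1521 were higher and 1357 lower. Of the 1275 among them no longer than the longest member, 527 were higher and 588 lower, so members were nearer to these genes. The largest differences in percentage points toward KO were 6.98 at Rpl36, 4.56 at Rpl19, 1.64 at Rpl29, 1.25 at Rps27l and 1.19 at Rpl7l1. The largest toward WT were -3.07 at Rpl30, -2.20 at Rpl36a, -1.92 at Rpl18, -1.23 at Rps27a, which encodes a ubiquitin fused to a small subunit protein, and -0.28 at Rpl22. Most members were at the ceiling of 100% in both lists, where a change in polymerase density cannot be seen by coverage. With 1 kb added at each end, 34 members were higher and 31 lower.

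RUNX1 was near almost every ribosomal protein gene. A WT RUNX1 summit lay within the gene or 5 kb of it at 77 of 83 members (92.8%), against a background of 50.1% of all protein-coding genes. In KO it was 81 members (97.6%), against 52.7%. Genes covered by S2P in both genotypes had such a peak about as often, 93% in WT and 96.5% in KO, and those no longer than the longest member 88.1% and 92.8%. The share at members is thus near that of other genes with elongating polymerase. All 30 small subunit genes were bound in both genotypes, as were 43 of 46 large subunit genes in WT and all 46 in KO. Mitochondrial ribosomal protein genes were bound at 70 and 77 of 78, and proteasome genes at 38 and 38 of 40. Another protein-coding gene lay within 5 kb of 61 members, so some of these peaks may belong to a neighbour.

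The strongest RUNX1 peak of each bound member ranged from 22 to 221 fragments in WT, with a median of 68, and from 13 to 248 in KO, with a median of 86. Over all bound genes the medians were 67 and 79. In WT the strongest were Rpl19 with 221 fragments, Rpl22 with 216, Rps19 with 158, Rpl18 with 150, and Rpl3 and Rps2 with 129 each. In KO they were Rpl22 with 248, Rpl19 with 238, Rplp0 with 190, Rpl18 with 165 and Rps19 with 164. Rpl3 and Rpl19 are core proteins of the large subunit, Rplp0 anchors the stalk that recruits translation factors, and Rps19 is the gene most often mutated in Diamond-Blackfan anemia. The Rps19 summit lay 75 bases before the gene in WT, in a peak at chr7:24883928-24884943, and 71 bases before it in KO. Before any scaling for depth, the strongest peak had more fragments in KO at 69 of the 77 members bound in both lists (89.6%), fewer at 7 and as many at 1. The background was 83.1% higher and 15.3% lower over all genes bound in both lists, and 89.8% and 8.86% over S2P-covered genes, which is near the share at members.

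**Figure D4:**
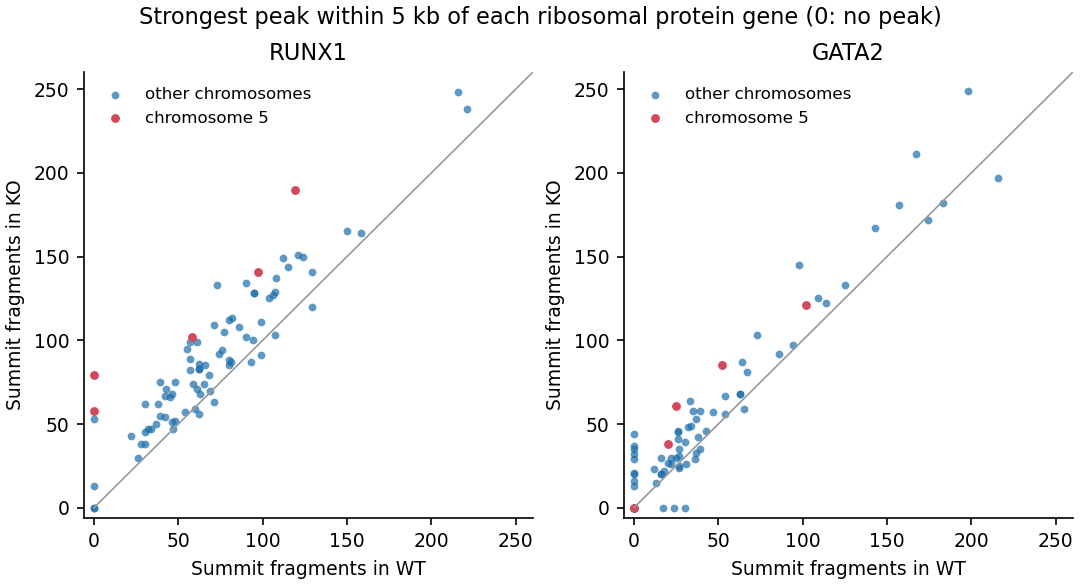
Fragments at the strongest summit near each ribosomal protein gene in WT (x axis) and KO (y axis) for RUNX1 and GATA2; each point is 1 gene, 0 means no peak, red marks chromosome 5 and the line marks equal numbers. The RUNX1 points reach 221 fragments in WT and 248 in KO, and 3 standard subunit genes have no WT RUNX1 peak but 53 to 79 fragments in KO.

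RUNX1 sat at the promoter. Of the 57 bound members with a known start, 46 had their strongest WT peak within 1 kb of it and 42 within the promoter window, with a median position of -52. In KO it was 48 of 61 within 1 kb and 37 within the window, with a median of -24. Of the 57 strongest WT summits, 48 were nearer to the start of the member than to that of any other gene in the table. A WT RUNX1 summit lay in 57 of the 75 member windows (76%), against 20.01% of all windows and 62.9% of those of S2P-covered genes. Only 4 of these 57 windows hold the RUNX core and 22 hold the ETS core (38.6%). Over all windows with a WT RUNX1 summit, 12.8% hold the RUNX core and 24.8% the ETS core.

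GATA2 was near fewer of these genes than RUNX1, and its strongest peak was mostly over 1 kb from a start. A GATA2 summit was within 5 kb of 59 members in WT (71.1%, background 56.6%) and 65 in KO (78.3%, background 61%). S2P-covered genes had one more often, at 83% and 88%, and the short ones among them at 69.5% and 77.3%. The strongest peak ranged from 12 to 216 fragments in WT, with a median of 37, and from 13 to 249 in KO, with a median of 46, against 44 and 48 over all bound genes. Before scaling it was higher in KO at 46 of 56 members bound in both lists (82.1%) and lower at 10, against 72.6% and 23.9% of all such genes and 81.3% and 16% of S2P-covered ones. Within 1 kb of a known start lay the strongest peak of 7 of 44 members in WT and 8 of 47 in KO. Of all WT GATA2 peaks near members with strand, 18.1% lay within 1 kb of the gene start, against 9.28% at other S2P-covered genes, which are longer. Promoter windows held a WT GATA2 summit in 8% of cases, against 2.55% of all windows and 5.44% of those of S2P-covered genes.

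The strongest GATA2 peaks show this layout. Rps26, whose product lines the exit channel of the mRNA and is lost in some patients with Diamond-Blackfan anemia, had 216 fragments in WT and 197 in KO, in a WT peak 1227 bp before its start at chr10:128627550-128627891. Rpl14 had 198 and 249 fragments, 2399 bp before its start in WT. Rps9 had 183 and 182, 311 bp past its end in WT, and Rps15a had 174 and 172, 2462 bp before its start. Rps3, at the entry of the mRNA channel, had 167 and 211, at 2815 bp past its end in WT. Rpl19 was the exception among the leading genes: its GATA2 peak, with 157 and 181 fragments, had its WT summit 203 bp from an RNA start. At both Rps15a and Rps9 the strongest WT RUNX1 peak lay at this same distal place, 2440 bp before the start of Rps15a and 304 bp past the end of Rps9.

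The factors were mostly found near the same genes but at different places. Both factors had a peak near 56 members in WT and 65 in KO. A GATA2 peak overlapped a RUNX1 peak at 18 of the 83 members in WT, a share below the background of 25.9%. In KO it was 33 of the 83, a share above the background of 29.6%. Only 15.4% of the RUNX1 peaks near members were overlapped by GATA2 in WT, against 53.9% of all RUNX1 peaks, and 20.2% in KO, against 52.4%. From the side of GATA2 the shares were 18.3% and 28.1%, against 22.5% in both full lists. The full RUNX1 list differs in place, however. Within 1 kb of a start lay 28.0% of all WT RUNX1 peaks, against 56.4% of those near members with a known start. Of promoter windows with a WT RUNX1 summit, 5.26% at members and 7.54% among all windows also held a WT GATA2 summit. Windows with both summits were thus few at members, 3 of 57, and among all windows. That share counts summits in a window, in WT alone. Overlap of peaks was not counted at the promoters of other genes. The strongest overlapping WT pairs stood at Rpl19 (157 GATA2 and 221 RUNX1 fragments, summits 317 bp apart), Rps25 (143 and 112, 33 bp apart), Rps15a (174 and 107, 22 bp apart), Rps10 (94 and 99, 14 bp apart) and Rps9 (183 and 80, 7 bp apart). Within 1 kb in place of 5 kb, 8 members in WT and 20 in KO had an overlapping pair.

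Between genotypes, RUNX1 was compared by the genes bound, by the height of shared summits and by the peaks found in 1 list. No member had a RUNX1 peak in WT alone (background 1.34% of all genes and 0.361% of S2P-covered genes). Rpl5, Rpl6, Rpl37a and the paralog Rpl32l had one in KO alone (4.82% of members), a share near the 3.99% of all genes and 3.81% of S2P-covered genes. Rpl10l and Rpl39l had none in either list. Of the members with a RUNX1 peak in KO alone, Rpl5 and Rpl6 are on chromosome 5 (2 of its 5 members), against 2 of the 78 members elsewhere. Rpl5, which binds MDM2 when ribosome assembly fails, had a KO peak of 79 fragments 26 bp before its start (chr5:107900402-107900891). Rpl6 had one of 58 fragments 133 bp after its start (chr5:121204429-121204877), in a gene with a RUNX core in its promoter window. Rpl37a had one of 53 fragments 15 bp before its start (chr1:72711131-72711448), whereas Rpl32l had 13. The fragments in WT at these places are not in a list of peaks, so no fold can be given. All 3 standard genes were covered by S2P over at least 99.1% in both genotypes.

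At RUNX1 summits present in both lists, KO stood somewhat above WT after division by the lowest background of each list, which scales with depth. The median log2 of KO over WT was 0.32 over 123 member summits, of which 104 (84.6%) were higher in KO against a background of 70.8%. It was 0.19 over all 23560 shared summits, and 0.29 over the 2265 within 1 kb of the start of other S2P-covered genes, of which 88.8% were higher. Members therefore stood near other active promoters. Without chromosome 5 the member median was 0.30. Dividing by the median fragment number of the shared summits in place of the lowest background shifts all values by -0.22, which gives 0.09 for members and -0.03 for all, with 72 of 123 higher.

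Single summits moved both ways. Rpl31 had 32 fragments in WT and 71 in KO near its 3′ end (log2 1.13, exact 95% interval 0.50 to 1.78, counting error only). Rpl7 went from 30 to 62 (1.02). The lower side was led by Rps10, a gene of Diamond-Blackfan anemia, with 99 and 65 fragments at a peak 1390 bp before its start (-0.63, interval -1.11 to -0.17). Rps15a had 39 and 28 fragments at an internal peak (-0.50) and Rpl35a had 30 and 22 past its end (-0.47), both with intervals that include 0.

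The number of RUNX1 peaks differed more than their height. There were 136 WT and 208 KO peaks near members, 1.53 times as many, against 1.22 times for the whole lists and 1.30 times for peaks near S2P-covered genes, the short ones among them included. More peaks were listed in KO at 50 members (60.2%), fewer at 4 and as many at 29, against 23.8% of all genes and 49.1% of S2P-covered genes with more. The stalk gene Rplp0, on chromosome 5, had 1 in WT and 5 in KO, and Rpl11 had 1 and 4. Without chromosome 5, members had 1.48 times as many RUNX1 peaks in KO as in WT. Of the 208 KO peaks, 77 at 52 members had no WT counterpart (37.0%, background 30.4%), and 5 of the 136 WT peaks had no KO counterpart (3.68%, background 13.4%). The KO-only peaks were low, with 10 to 79 fragments and a median of 21. With the same number of top peaks in both lists there were 33 KO-only and 13 WT-only peaks, and at a −log10 q of at least 5 there were 44 and 2. Of the 77, 11 were on chromosome 5.

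These KO-only peaks lay at other places than the shared ones. Near the 63 members with known strand, 53 of 98 shared KO peaks (54.1%) were within 1 kb of the gene start, 14 (14.3%) within 1 kb of the 3′ end and 17 (17.3%) 1 to 5 kb downstream. Of 60 KO-only peaks, 12 (20%) were at the start, 24 (40%) at the 3′ end and 16 (26.7%) downstream. At the 2459 other S2P-covered genes with strand, 27.7% of 2310 KO-only peaks were at the start, 45.6% inside, 8.79% at the 3′ end and 10.2% downstream, in genes that are longer. Of the 5161 shared KO peaks there, 42.7% were at the start, 38.8% inside, 4.03% at the 3′ end and 7.03% downstream, so the KO-only peaks held fewer starts and more 3′ ends at those genes as well. The 3′ ends of members are also where S2P coverage was highest. Of the KO-only peaks near members 67 of 77 (87.0%) had their summit under a WT S2P peak, as did 73.3% of the shared KO peaks near members. Over the whole list it was 24.1% of all KO RUNX1 peaks and 28.1% of the KO-only ones. Peaks near other S2P-covered genes were not counted this way. The part of polymerase density in the KO-only peaks was not tested.

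**Figure D5:**
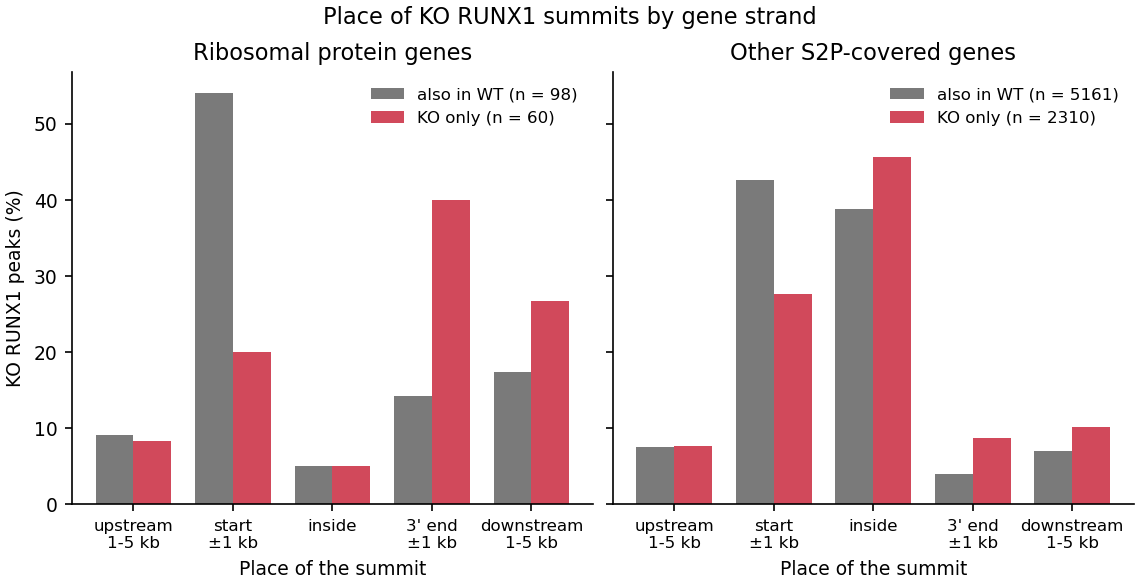
Place of KO RUNX1 summits by gene strand (x axis) as a percentage of peaks (y axis), for peaks also found in WT and peaks found in KO only, at 63 ribosomal protein genes and at 2459 other S2P-covered genes. At ribosomal protein genes 54.1% of shared peaks were at the start and 40% of KO-only peaks at the 3′ end.

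More members had a GATA2 peak in 1 genotype alone than had a RUNX1 peak in 1 alone. WT alone had a peak at Rps6, the target of the S6 kinases (17 fragments), Rpl28 (30) and Rpl41, which encodes the smallest subunit protein (24). KO alone had one at Rpl23 (44), Rps19 (37), Rpl36 (35), Rpl29 (32), Rps21 (29), Rps13 (21), Rps7 (20), Rpl32 (16) and Rpl10 (13), and 15 members had none in either list. These are 3.61% of members in WT alone and 10.8% in KO alone, against 2.9% and 7.35% of all genes and 1.51% and 6.5% of S2P-covered genes. Shared summits had a median log2 of 0.22 over 100 member summits, with 75 (75%) higher in KO against a background of 60.8%. The median was 0.11 over all summits and 0.24 near the starts of other S2P-covered genes. The alternative scaling gives 0.06 for members with 58 of 100 higher, and -0.05 for all. Without chromosome 5 the member median was 0.20, and all 8 member summits on chromosome 5 were higher, with a median of 0.73 against 0.46 for that chromosome.

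The largest GATA2 difference was at Rplp0, inside the gene, with 25 and 61 fragments (log2 1.20, interval 0.51 to 1.94). Rps27 had 19 and 41 past its end (1.02, interval 0.21 to 1.89). Rpl5 had 11 and 23 (0.98), with an interval of -0.12 to 2.16 that includes 0. Rplp0 and Rpl5 are on chromosome 5. Those toward WT were at Rps25 (23 and 17, -0.52) and Rps4x (36 and 29, -0.40), with intervals that include 0. There were 115 WT and 153 KO GATA2 peaks near members, 1.33 times as many, against 1.18 times for the whole lists, 1.23 times near S2P-covered genes, 1.27 times near the short ones among them and 1.35 times near mitochondrial ribosomal protein genes. More were listed in KO at 28 members (33.7%), fewer at 6 and as many at 49, against 30.9% of all genes and 47.4% of S2P-covered genes with more. Of the 153 KO peaks 49, and of the 115 WT peaks 10, had no counterpart (backgrounds 31.2% and 18.5%). Under a WT S2P peak lay 35 of the 49 KO-only summits (71.4%), against 63.5% of the shared KO peaks near members. Over the whole list it was 16.3% of all KO GATA2 peaks and 15.3% of the KO-only ones.

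Of 20 members linked to Diamond-Blackfan anemia and related ribosomopathies, RUNX1 was near 19 in WT and 20 in KO, and GATA2 near 14 and 16. These shares (95% and 70% in WT) are near those of all members, 92.8% and 71.1%. Rpl5 was the one without a WT RUNX1 peak. All 16 of at least 2 kb were covered by S2P over at least 50%, and 12 in WT and 11 in KO were covered completely. Rps14, the small subunit gene lost in a deletion syndrome with refractory anemia, had RUNX1 peaks of 39 and 55 fragments, no GATA2 peak, and S2P coverage of 100% and 99.7%. Rpl11, a partner of Rpl5 in binding MDM2, had RUNX1 peaks of 48 and 52 and GATA2 peaks of 54 and 67 fragments.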

How the data were processed

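Chromatin was immunoprecipitated for GATA2, RUNX1 and S2P. Bowtie2 2.2.1, MACS2 2.1.0 and build GRCm38 (mm10) are named without roles per the submitters' processing notes. The authors deposited 1 narrowPeak list per target and genotype. The deposited score is 10 times the −log10 q in whole numbers, the deposited fold enrichment is a ratio of pileup to local background, the deposited columns of −log10 p and of −log10 q come from the caller, and the deposited summit is an offset in bp. The lists end near a q-value of 0.05. Each S2P list is named for both replicates, and how they were combined is not given in the sources used here.

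With Python 3.11.15 and SciPy 1.17.1, whole fragment numbers at factor summits were recovered from fold and −log10 p, with 100% within a tolerance of 0.005. The lowest backgrounds of the lists were 1.48 and 1.57 fragments for WT and KO GATA2 and 1.37 and 1.39 for RUNX1. A recovery test on simulated data returned 100% of 20000 summits. Total read numbers are not analysed here, so depth is known only through these values. A peak was near a gene when its summit lay in it or within 5 kb. Peaks were shared at 1 bp of overlap or more, and heights were compared where 1 WT peak met 1 KO peak. S2P coverage is the share of a gene under peaks. Strand and starts came from the promoter table, for 63 of 83 members. Intervals of fragment ratios are exact at 95% and cover counting error only. The highest summit of each factor list stood at its ceiling, 286 fragments in WT and 282 in KO. Such a ceiling arises when each position and strand counts once, and ratios near it may be compressed.

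The members, gene lists and alternatives were chosen with earlier results of these data known. Genes were named by rule: the 5 strongest peaks of each factor list, members bound in 1 genotype or none where 12 or fewer, the 5 largest S2P differences in each direction, members at 0, the 5 strongest overlapping pairs, the 3 largest summit differences each way, the paralogs and the ribosomal genes outside the naming rule. Some genes that the rule names are not reported here. Other named members were chosen after their values were seen.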

Additional observations from a re-analysis of the deposited data

How the results depend on the processing

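Of 14 results under 72 alternatives, 60 values stayed and 12 moved. A count stayed when it was within 1.5 times the main value. A median stayed when it was within the 95% interval of the main median over member summits or genes. That interval is a yardstick only: it counts summits or genes as separate units and gives no spread between replicates. Only the log2 medians could change sign, and 0 reversed. Counts and coverage cannot reverse. With a window of 1 kb, 34 members had a WT GATA2 peak, 8 in WT and 20 in KO had overlapping GATA2 and RUNX1 peaks, and 50 RUNX1 peaks were KO only. Those numbered 44 at a −log10 q of at least 5 and 33 with equal numbers of top peaks; the alternatives for KO-only peaks were added after seeing the data. Scaling by the median of shared summits gave a median log2 of KO over WT of 0.0645 for GATA2 and 0.0949 for RUNX1. With 1 kb added at each end the median S2P coverage was 83.5% in WT and 83.8% in KO, and 34 members were higher in KO; by over 5 points 1 was. No paired analysis was possible because each target has 1 list per genotype and no result comes from a test. Leaving out an S2P replicate was not possible, since both are in 1 list. WT and KO differences cannot be told apart from differences between libraries, and the KO-only peaks rest on few fragments (a median of 21).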

Other observations

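Some ribosomal genes that fall outside the naming rule had like values. Fau, which encodes a ubiquitin-like protein fused to a small subunit protein, had strongest RUNX1 peaks of 176 fragments in WT and 183 in KO. Rack1, a scaffold on the small subunit, had 46 and 77, Rpl36al had 121 and 162, and Rps3a1 had 55 and 64. S2P coverage was 100% in both genotypes for Fau, Rack1 and Rpl36al, and 96.4% and 98.3% for Rps3a1.

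Other genes of the translation machinery were also bound and covered. Of 32 ribosome biogenesis genes, 31 in WT and 32 in KO had a RUNX1 peak within 5 kb, and their median S2P coverage was 85.8% and 80.1%. Of 29 translation factor genes, 28 and 29 had a RUNX1 peak, and the median coverage was 95.5% and 94.2%. S2P-covered genes had a RUNX1 peak about as often, at 93% in WT and 96.5% in KO, against 50.1% and 52.7% of all genes. Inside 29 of the ribosomal protein genes RefSeq annotates 58 small nucleolar RNAs, with at most 5 in a gene (Rpl4), which S2P peaks cannot separate from the host transcript.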
